A study of Sus scrofa with 12 samples.

Results

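The genes described here encode components of the complement system: properdin (CFP), C3, factor B (CFB), factor D (CFD), 2 chains of C1q (C1QA and C1QC) and C5. They were taken as every probe set on the porcine array whose only annotated symbol was one of 8 listed names, which gave 9 probe sets for 7 genes, of 24123 probe sets and 6765 singly named genes in all. CFP and CFB had 2 probe sets each and the others 1, and the remaining C1q chain, C1QB, had none under that symbol. The tissue was stented coronary artery, taken from pigs of the Yorkshire farm breed at day 28 after balloon angioplasty and stent placement. The groups were a sirolimus-eluting stent (SES), a zotarolimus-eluting stent (ZES) and a bare metal stent (BMS), with 4 segments from 2 pigs each. All 3 groups had been stented, and unstented artery was not analysed here. No source used here gives the pigs' age or the drug dose, and the series title speaks of overlapping stents. Segments are named by stent type and a number, where 1 and 2 share a pig, as do 3 and 4. SES 1 came from the left circumflex artery (LCX), and the others from the right coronary (RCA) or left anterior descending artery (LAD).

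Complement is a cascade of blood and tissue proteins that tags surfaces and calls in leukocytes. In the classical pathway, C1q recognises antibody or altered surfaces and starts cleavage of C4 and C2. In the alternative pathway, C3b deposited on a surface binds factor B, factor D cleaves it, and properdin stabilises the resulting convertase. Both routes cleave C3 and then C5, whose larger fragment begins the membrane attack complex. Most circulating complement comes from the liver, but macrophages make C1q, leukocytes store and release properdin, and adipocytes and fibroblasts can make factor D. Sirolimus binds FKBP12 and inhibits the mTOR kinase. Zotarolimus is an analog of it in which a tetrazole replaces one hydroxyl.

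Values are log2 signals that the authors scaled so that all arrays share one mean level. A probe set was counted as above background on an array when it exceeded the 95th percentile of 59 control probe sets there, which lay between 4.15 and 5.96. Of the 9 probe sets, 5 were above it on all 12 arrays: C3, CFD, C1QA, C1QC and the brighter set of CFP (probe set 1). These 5 passed the filter on low values and were tested. The other 4 did not pass and are described only. They are the second set of CFP (probe set 2), both sets of CFB (probe sets 1 and 2) and C5. A level of one probe set cannot be ranked against that of another on this array, so genes are compared only across samples.

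Control readings also varied between the groups. For the GAPDH control probe sets, the signal at the 3' end minus that at the 5' end was 2.71 ± 0.35 with SES, 3.66 ± 0.19 with ZES and 4.16 ± 0.50 with BMS (log2, mean ± SD, n = 4). The spike-in controls averaged 15.09 ± 0.43 with SES, 15.30 ± 0.58 with ZES and 16.30 ± 0.38 with BMS. In both, all SES arrays lay below all BMS arrays. The two-sided exact permutation test gave p = 0.0286, the smallest it can give, and adjusted p = 0.214 over 45 control and marker tests. The background level averaged 4.72 ± 0.54 with SES, 4.72 ± 0.41 with ZES and 5.51 ± 0.31 with BMS. Counts of arrays above background therefore depend on this level as well as on the signal. Of 7 measured smooth muscle markers 6 were above background on all arrays, as were 10 of 12 measured macrophage markers. Of 6 hepatocyte markers only APOA1 was, and albumin (ALB) was above background on 4 of 12 arrays.

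**Figure D1:**
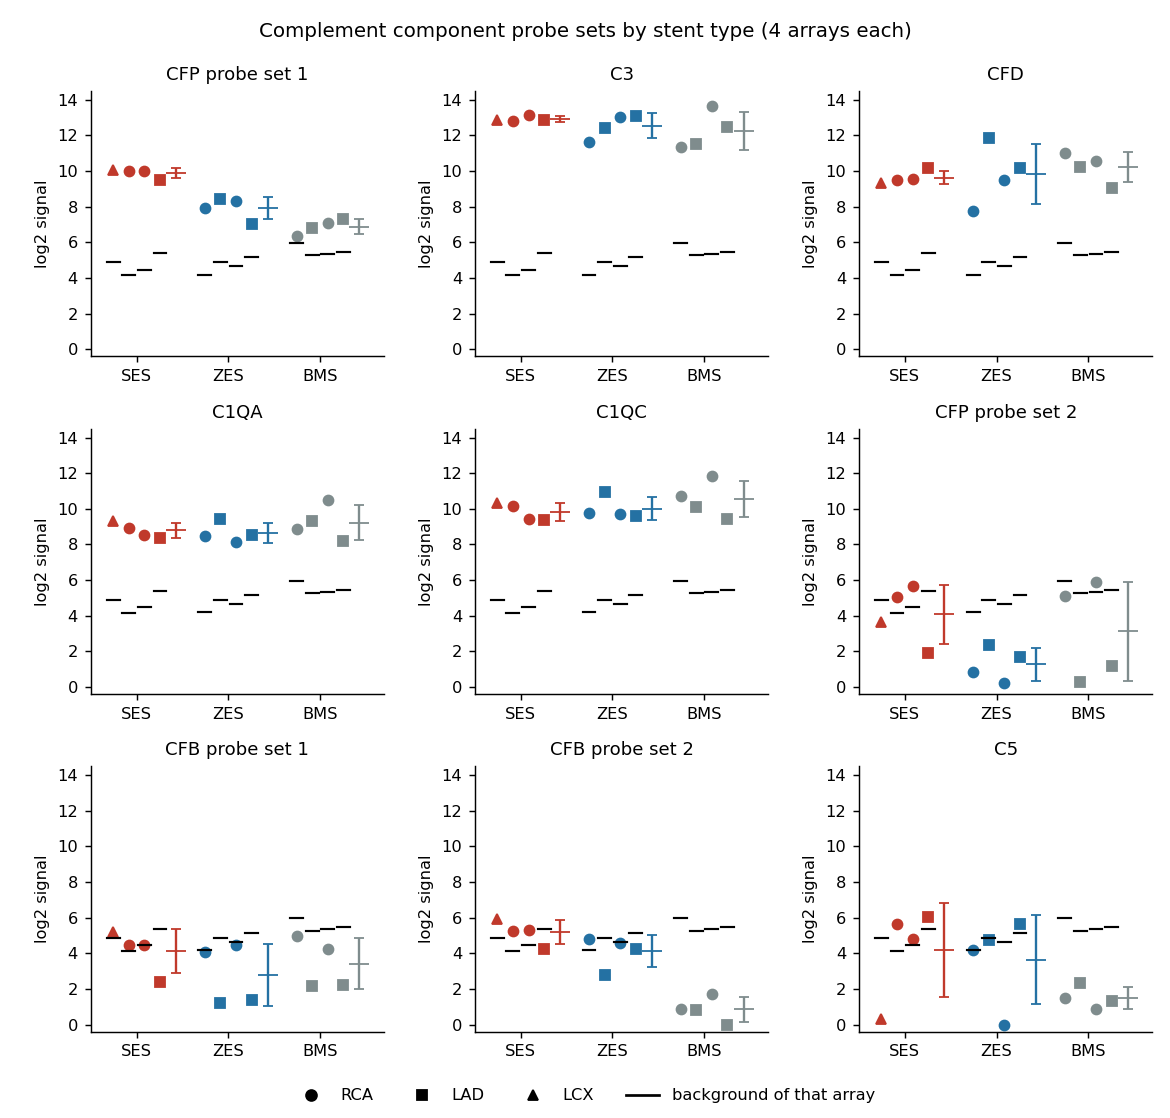
Log2 signal (y axis) of the 9 complement probe sets on each array, by stent type, with 4 arrays per group. Symbols give the artery, short black lines the background level of that array, and crosses with bars the group mean ± SD. CFP probe set 1 lies between 9.50 and 10.03 on the SES arrays, apart from all others, while both CFB sets, CFP probe set 2 and C5 lie near or below background.

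Properdin is the only known positive regulator of complement, and CFP was the 1 of 5 tested members that was called between stent types. Its probe set 1 read 10.03, 10.00, 10.02 and 9.50 on SES 1 to 4, 7.94, 8.42, 8.32 and 7.05 on ZES 1 to 4, and 6.35, 6.80, 7.07 and 7.32 on BMS 1 to 4. Every SES array lay above every ZES and every BMS array, while the ZES and BMS ranges overlapped. The means were 9.89 ± 0.26 with SES, 7.93 ± 0.62 with ZES and 6.88 ± 0.42 with BMS (SD, n = 4).

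CFP rose with SES relative to BMS by 3.00 ± 0.41 on the log2 scale (estimate ± SE, 95% interval 2.13 to 3.87), which is 8.01-fold (limma adjusted p = 0.00549). It had the 4th smallest p-value of the 16799 probe sets tested. In this comparison 0.679% of all probe sets passed, 0.494% as higher with SES, and 4.23% of probe sets had every SES array above every BMS array. CFP was the 1 of 5 tested members in each of these classes. With means per pig in place of arrays the adjusted p was 0.0244, and with the artery as a term, chosen after seeing the data, it was 0.0459 (2.93). The call ended without SES 3 (2.96, adjusted p = 0.0688), without the pig of SES 1 and 2 (2.87, adjusted p = 0.183), and with the GAPDH difference (2.67, adjusted p = 0.715) or the spike-in level (2.56, adjusted p = 0.676) as a covariate. Over all 16799 probe sets the calls then numbered 0, 1, 0 and 0. Both covariates separate SES from BMS arrays completely, so that covariate and stent type cannot be told apart there.

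ZES minus BMS gave 1.05 ± 0.41 for CFP (95% interval 0.18 to 1.92, adjusted p = 0.481), where 0% of all probe sets passed. In limma 1510 probe sets had an unadjusted p under 0.05 in this comparison, CFP among them. The direct comparison of the drug-eluting stents, ZES minus SES, gave -1.95 ± 0.41 (95% interval -2.82 to -1.08), a 3.87-fold lower signal with ZES at adjusted p = 0.0735. It did not pass at 0.05, where 0.0714% of probe sets did, although the groups did not overlap. The share of probe sets with every SES array above every ZES array was 3.06%. CFP passed in this comparison without SES 4 (adjusted p = 0.0351), without either BMS pig (adjusted p = 0.0390 and 0.0381), with array weights (adjusted p = 0.00986) and with a pseudocount (adjusted p = 0.0486). The calls over all 16799 probe sets numbered 158, 47, 54, 306 and 47 in these fits, against 12 in the one above. In the other 26 of 31 recalculations CFP did not pass for ZES minus SES. Among them were means per pig (adjusted p = 0.241) and no variance trend (adjusted p = 0.230). The artery as a term (adjusted p = 0.293) and the GAPDH covariate (adjusted p = 0.825) were others. Calls over all probe sets numbered 4, 0, 4 and 0 there. Over the 3 stent types together, limma's F test called CFP (adjusted p = 0.0140), against 0.345% of all probe sets, and no longer did so with means per pig, with either covariate, with the artery as a term, or without SES 1, SES 2, SES 3 or either SES pig.

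The pigs of one stent type differed less in CFP than the stent types did. Pig means were 10.01 and 9.76 with SES, 8.18 and 7.69 with ZES, and 6.57 and 7.19 with BMS. The second probe set of CFP did not repeat this pattern and lay below background on most arrays. It read 3.64, 5.05, 5.66 and 1.92 on SES 1 to 4, 0.86, 2.33, 0.22 and 1.71 on ZES 1 to 4, and 5.11, 0.30, 5.89 and 1.16 on BMS 1 to 4. It was above background on 2 SES arrays, on 0 ZES arrays and on 1 BMS array. Without the filter its SES minus BMS difference was 0.96 (limma adjusted p = 0.805), with no reliable size near background. ZES minus BMS and ZES minus SES did not pass either (adjusted p = 0.707 and 0.536). Between the 2 CFP probe sets Pearson r was 0.254 over 12 arrays, and -0.046 with group means taken out. The reason for their disagreement was not tested.

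**Figure D2:**
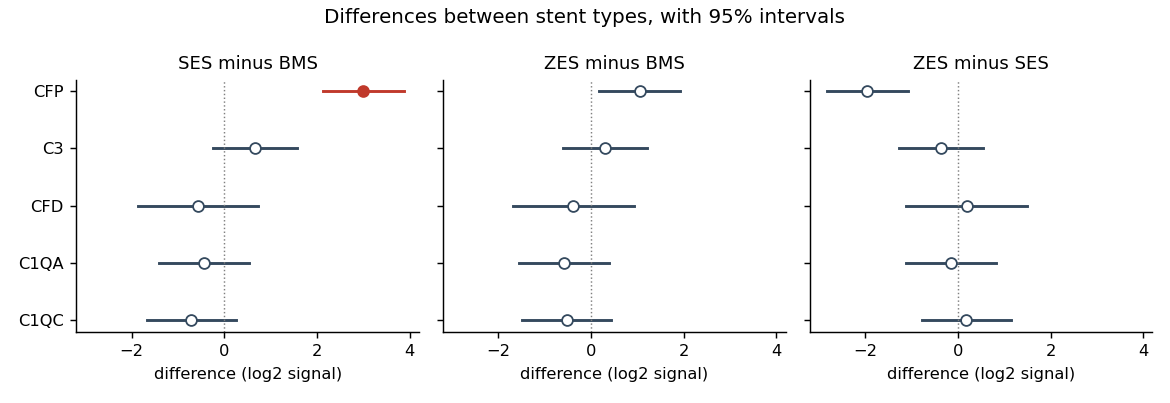
Difference in log2 signal (x axis) of the 5 tested members in the 3 comparisons of stent types, as estimate and 95% interval from limma. The filled red point, CFP for SES minus BMS at 3.00, is the one that passed, and the intervals of C3, CFD, C1QA and C1QC include 0 in each comparison.

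Markers of leukocytes, smooth muscle and endothelium are set beside CFP here, with the range of their mean level over the arrays of a group. In tissue samples, more cells of a type and more RNA per cell cannot be told apart. The 5 measured of 11 neutrophil markers averaged 6.17 to 8.41 on the SES arrays, 4.65 to 8.89 on the ZES arrays and 4.45 to 6.20 on the BMS arrays. The 9 T cell markers averaged 5.18 to 6.15 with SES, 4.80 to 5.69 with ZES and 3.60 to 5.32 with BMS. Of the T cell markers only CD2 was above background on all 12 arrays, and of the neutrophil markers 0 were. On every BMS array the T cell mean lay below 5.51, the average BMS background, so the size of its difference is not reliable. For SES against BMS these lists gave exact permutation p = 0.0571 each (two-sided, adjusted p = 0.257). No neutrophil marker passed singly, and of the T cell markers CD3E, part of the CD3 signalling complex, did (limma adjusted p = 0.0172). The BMS mean of CD3E was 2.73, below 5.51, the average background of the BMS arrays. The size of its difference is therefore not reliable. CD2, CD3D, CD4 and CD8B had lower means with SES than with BMS, and the other T cell markers had higher means. The calgranulin gene S100A8 averaged 9.74 with SES, 9.67 with ZES and 4.53 with BMS. That BMS mean also lay below background, so the size of the difference is not reliable. S100A9 and S100A12 were likewise higher with SES than with BMS, without passing. The BMS mean of S100A9, 4.99, was also below the average BMS background. The neutrophil protease ELANE, above background on 6 arrays, averaged 3.18 with SES, 4.60 with ZES and 4.60 with BMS. LTF, above background on 2 arrays, averaged 3.21, 2.35 and 3.41. The mean of the 12 measured of 16 macrophage markers differed little, at 9.26 to 10.52 with SES, 9.40 to 10.14 with ZES and 9.55 to 10.57 with BMS. Single macrophage markers went both ways in SES minus BMS, such as 2.09 for MRC1 and -0.79 for FCER1G. Of 11 tested, 7 were positive, against 48.8% of all probe sets, and 0 passed in limma. The 7 measured of 10 smooth muscle markers averaged 8.87 to 11.91 with SES, 9.86 to 13.19 with ZES and 11.56 to 12.64 with BMS. All 7 had lower means with SES than with BMS, and 0 passed in limma (smallest adjusted p = 0.0804). The 2 measured of 6 B cell markers averaged 8.82 ± 0.86 with SES, 7.90 ± 1.32 with ZES and 7.56 ± 0.86 with BMS (SD, n = 4). The 8 measured of 9 endothelial markers averaged 6.32 to 7.82 with SES, 7.23 to 7.90 with ZES and 5.84 to 6.44 with BMS. All ZES arrays lay above all BMS arrays in that mean, and SES and BMS overlapped. In SES minus BMS 7 of 7 tested endothelial markers were positive (median 1.41), against 48.8% of all probe sets, and 0 passed. CDH5, VWF, TIE1 and CLDN5, which gives the median, had BMS means below the average BMS background. The size of their differences is not reliable. PECAM1, TEK and ERG, above background on all 12 arrays, gave 0.17, 0.39 and 0.28. The part of these cells in the CFP signal was not tested.

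The genes whose values were most like those of CFP over the 12 arrays were CCL2 (Pearson r = 0.952), TSPAN13 (r = 0.939) and CCL5 (r = 0.935), of 5792 genes compared. CCL2 and CCL5 are chemokines for monocytes and T cells. All 3 were themselves higher with SES than with BMS (limma adjusted p = 0.00549, 0.00944 and 0.00549). Their choice by likeness to CFP on these same arrays makes that likely, so it is not a separate result. With group means taken out, the r values were 0.636, 0.703 and 0.569, so that part of the likeness lay between stent types.

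C3, the protein on which all activation routes converge, was bright in every segment and showed no difference between stents that passed the test. It read 12.89, 12.79, 13.13 and 12.86 on SES 1 to 4, 11.63, 12.45, 13.03 and 13.11 on ZES 1 to 4, and 11.37, 11.51, 13.68 and 12.46 on BMS 1 to 4. The 4 SES arrays were close together, and the BMS arrays spread most, with the brightest and the dimmest array of all. The differences were 0.66 ± 0.43 for SES minus BMS (95% interval -0.25 to 1.57, adjusted p = 0.508), 0.30 ± 0.43 for ZES minus BMS (adjusted p = 0.879) and -0.36 ± 0.43 for ZES minus SES (adjusted p = 0.835). C3 differed between the pigs of a group by as much as 1.63, with means of 11.44 and 13.07 for the BMS pigs, and 12.04 and 13.07 for the ZES pigs. Without the pig of BMS 3 and 4, SES minus BMS passed at 1.48 (adjusted p = 0.0492), and without that of BMS 1 and 2 it was -0.15 (adjusted p = 0.909). The genes most like C3 over the arrays were TUBA1B (r = 0.915), SCAMP2 (r = 0.904) and CPT1A (r = 0.901).

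Factor D, the serine protease that cleaves factor B, gave no difference between stents that passed either. CFD read 9.34, 9.48, 9.54 and 10.20 on SES 1 to 4, 7.77, 11.87, 9.52 and 10.15 on ZES 1 to 4, and 11.01, 10.23, 10.56 and 9.04 on BMS 1 to 4. The highest and the lowest value of the series were the LAD and the RCA segment of the same ZES pig. The differences were -0.57 ± 0.62 for SES minus BMS (95% interval -1.87 to 0.73, adjusted p = 0.719), -0.38 ± 0.62 for ZES minus BMS (adjusted p = 0.896) and 0.19 ± 0.62 for ZES minus SES (95% interval -1.11 to 1.49, adjusted p = 0.952). CFD is also known as adipsin, a product of fat cells. Of the 8 measured of 11 adipocyte markers, FABP4, LPL and PNPLA2 were above background on all 12 arrays and adiponectin (ADIPOQ) on 0. The part of fat cells in the CFD signal was not tested.

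Over the arrays CFD varied with the fibroblast and the smooth muscle markers. Its Pearson r was 0.898 with the mean of 6 measured of 8 fibroblast markers (0.895 with group means taken out) and 0.664 with the mean of the smooth muscle markers (0.767 with group means taken out), over 12 arrays. With the mean of the adipocyte markers r was 0.234. The fibroblast mean was 8.92 and 11.08 on ZES 1 and ZES 2, the arrays with the lowest and the highest CFD. The single genes most like CFD were ZNHIT1 (r = 0.967), the ribosomal protein gene RPLP1 (r = 0.957) and C12H17orf49 (r = 0.951). These are descriptions over 12 arrays from 6 pigs, in which the paired segments share an animal. ZES 2 also stood apart in a control, with a 28S ribosomal RNA signal of 14.10, against 14.57 on BMS 1 and 6.95 to 10.74 on the other 10 arrays. Without ZES 2 and BMS 1, a choice made after seeing the data, ZES minus SES for CFD was -0.49 (adjusted p = 0.870).

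The C1q chains, which open the classical pathway, varied together, and neither passed the test between stent types. C1QA read 9.31, 8.95, 8.54 and 8.34 on SES 1 to 4, 8.46, 9.42, 8.12 and 8.55 on ZES 1 to 4, and 8.89, 9.29, 10.50 and 8.21 on BMS 1 to 4. C1QC read 10.30, 10.16, 9.43 and 9.39 on SES 1 to 4, 9.78, 10.96, 9.70 and 9.58 on ZES 1 to 4, and 10.72, 10.11, 11.85 and 9.45 on BMS 1 to 4. For both genes BMS 3 was the highest array and the groups overlapped. SES minus BMS gave -0.44 ± 0.46 for C1QA (95% interval -1.41 to 0.53, adjusted p = 0.707) and -0.71 ± 0.45 for C1QC (95% interval -1.67 to 0.25, adjusted p = 0.498). ZES minus BMS gave -0.58 ± 0.46 (adjusted p = 0.738) and -0.53 ± 0.45 (adjusted p = 0.764) for C1QA and C1QC, and ZES minus SES gave -0.14 ± 0.46 (adjusted p = 0.951) and 0.18 ± 0.45 (adjusted p = 0.935).

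Among 5792 genes, the one most like C1QA over the 12 arrays was C1QC, and the one most like C1QC was C1QA (Pearson r = 0.915, and 0.922 with group means taken out). The next most like were ACBD3 (r = 0.835) and TRAPPC1 (r = 0.826) for C1QA, and AP2S1 (r = 0.866) and PCBP2 (r = 0.853) for C1QC. In the current pig assembly, Sscrofa11.1, C1QA, C1QC and C1QB are neighbours with no other protein-coding gene between them. With the mean of the macrophage markers r was 0.487 for C1QA and 0.551 for C1QC (0.467 and 0.588 with group means taken out). With the fibroblast markers it was 0.508 for C1QA and 0.516 for C1QC. With the endothelial markers it was 0.0392 for C1QA and 0.0987 for C1QC (0.626 and 0.685 with group means taken out). CFP had r = -0.173 with C1QA and -0.306 with C1QC, and 0.421 with C3. Between C3 and CFD r was 0.0574.

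**Figure D3:**
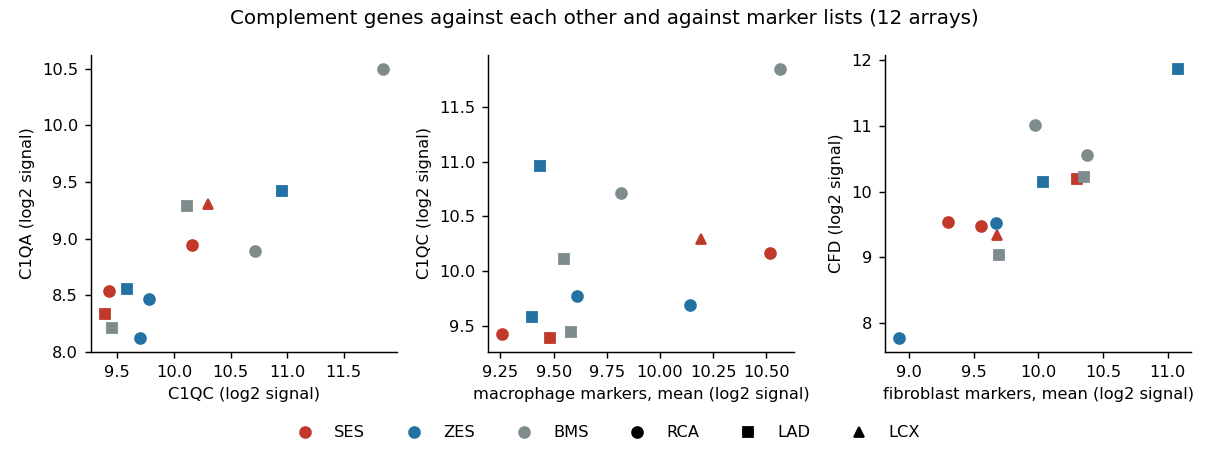
Each point is 1 of the 12 arrays, coloured by stent type and shaped by artery, with log2 signals on both axes. C1QA is drawn against C1QC (r = 0.915), C1QC against the mean of the macrophage markers (r = 0.551) and CFD against the mean of the fibroblast markers (r = 0.898).

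The remaining probe sets lay near background, and their differences have no reliable size. Factor B carries the protease of the alternative convertase. CFB probe set 2 read 5.95, 5.24, 5.34 and 4.27 on SES 1 to 4, 4.81, 2.81, 4.58 and 4.24 on ZES 1 to 4, and 0.90, 0.85, 1.72 and 0 on BMS 1 to 4. It was above background on 3 SES arrays, on 1 ZES array and on 0 BMS arrays. The drug-eluting stent arrays lay above the BMS arrays without overlap, but the SES mean of 5.20 did not reach 5.51, the average background of the BMS arrays, and a fold has no meaning there. Among the tested probe sets, which leave CFB out, 4.23% had every SES array above every BMS array. The share without the filter was not computed. When no filter on low values was applied, this probe set passed in limma for SES minus BMS (adjusted p = 0.0426) and not for ZES minus BMS (adjusted p = 0.347). Of all 23999 probe sets, 0.763% and 0.0125% passed in these comparisons. CFB probe set 1 averaged 4.13 with SES, 2.79 with ZES and 3.42 with BMS, and overlapped between the groups. It was above background on 2 SES arrays and on 0 others, and at the 90th percentile of the controls on 3 SES, 2 ZES and 0 BMS arrays.

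C5 gives rise to the anaphylatoxin C5a and to C5b of the membrane attack complex. It read 0.34, 5.63, 4.82 and 6.06 on SES 1 to 4, 4.22, 4.75, 0 and 5.65 on ZES 1 to 4, and 1.48, 2.32, 0.86 and 1.34 on BMS 1 to 4. It was above background on 3 SES arrays, on 2 ZES arrays and on 0 BMS arrays, and 1 array of each drug-eluting stent lay below every BMS array. Without the filter C5 did not pass (adjusted p = 0.407 for SES minus BMS and 0.663 for ZES minus BMS). A value of 0 marks the lower end of the scale, not missing RNA.

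The other genes of the system gave a wider view of the cascade and its control. Of 47 further complement genes listed, 28 had a probe set and 21 were tested. For each of SES minus BMS, ZES minus BMS and ZES minus SES, 0 rose and 0 fell in limma, and 4, 4 and 1 had an unadjusted p under 0.05. Over all probe sets the shares under 0.05 were 14.3%, 8.99% and 10.0%. In SES minus BMS 15 of 21 were positive, with a median of 0.74, against 48.8% positive and a median of -0.020 over all probe sets. Of the positive genes, C2, C8G, C9, FCN1, FCN2, CR1 and CD93 had BMS means below 5.51, the average background of the BMS arrays. Their differences, like that of the negative VTN described below, have no reliable size. The other tested probe set of C9 gave -1.81 against 1.26. In ZES minus BMS 9 of 21 were positive (median -0.15), against 49.1% of all probe sets, and in ZES minus SES 9 of 21 (median -0.27), against 48.7%.

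The gene with the smallest p in SES minus BMS was VTN, vitronectin, which keeps the membrane attack complex from inserting. It averaged 3.63 with SES, 6.54 with ZES and 7.48 with BMS, at -3.85 ± 0.96 for SES minus BMS (adjusted p = 0.0722) and 2.90 ± 0.96 for ZES minus SES (adjusted p = 0.279). VTN was above background on 2 of the 4 SES arrays, on all 4 ZES arrays and on all 4 BMS arrays. Its SES mean lay below 4.72, the average background of the SES arrays, so its differences from SES have no reliable size. ITGB2, the beta chain of the leukocyte receptors for cleaved C3b, averaged 11.41 with SES, 10.44 with ZES and 8.24 with BMS. Its differences were 3.16 ± 0.82 for SES minus BMS (adjusted p = 0.0823) and 2.20 ± 0.82 for ZES minus BMS (adjusted p = 0.456). CLU, clusterin, a fluid-phase inhibitor of the terminal complex, was at 11.44 with SES, 11.13 with ZES and 10.18 with BMS, with 1.25 ± 0.34 for SES minus BMS (adjusted p = 0.0893) and 0.95 ± 0.34 for ZES minus BMS (adjusted p = 0.428).

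CD59, the membrane inhibitor of the attack complex, was at 11.94 with SES, 12.11 with ZES and 13.07 with BMS, at -1.14 ± 0.43 for SES minus BMS (adjusted p = 0.218) and -0.96 ± 0.43 for ZES minus BMS (adjusted p = 0.524). Its dimmer second probe set gave -1.87 and -0.084. In ZES minus SES, PTX3, a pentraxin that binds C1q, gave -0.97 ± 0.68 (adjusted p = 0.691). CD55, which breaks up convertases, gave -1.78 ± 1.34 (adjusted p = 0.711), and the other tested probe sets of CD55 gave -1.29 and -0.16. The classical proteases C1R and C1S, named after their values were seen, were above background on all 12 arrays and differed by -0.54 ± 0.38 (adjusted p = 0.542) and -0.18 ± 0.39 (adjusted p = 0.872) for SES minus BMS.

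**Figure D4:**
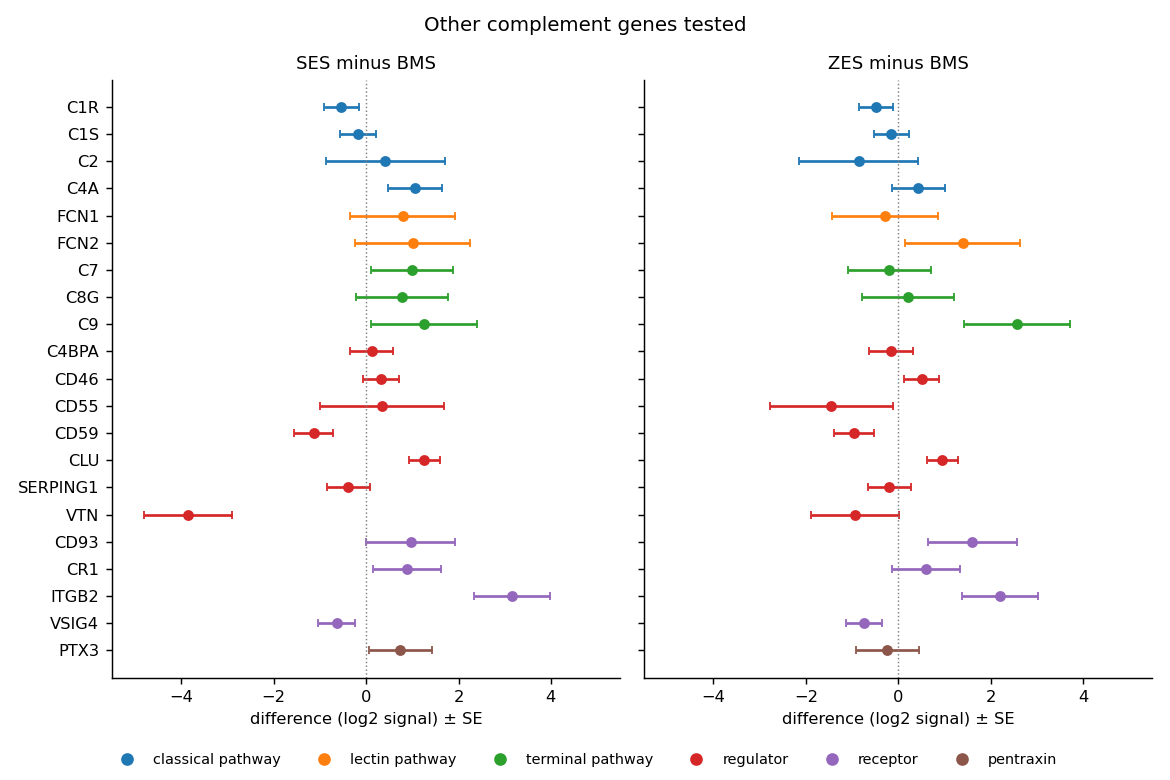
Differences in log2 signal (x axis, estimate ± SE) of the 21 other complement genes tested, for SES minus BMS and ZES minus BMS, with colours for their roles. VTN lies lowest and ITGB2 highest for SES minus BMS, at -3.85, with an SES mean below background, and 3.16, and no gene passed the test.

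Within pigs, the artery made no difference that passed. Of the 6 pigs, 5 had an LAD and an RCA segment, and with the pig as a block 0% of all probe sets were called for LAD minus RCA (1153 had an unadjusted p under 0.05 in limma). The differences were -0.12 ± 0.45 for CFP, -0.088 ± 0.30 for C3, 0.62 ± 0.62 for CFD, -0.14 ± 0.47 for C1QA and -0.40 ± 0.44 for C1QC. CFD was higher in the LAD than in the RCA in all 3 pigs with a drug-eluting stent, by 0.66 for SES 4 over SES 3, by 4.11 for ZES 2 over ZES 1 and by 0.62 for ZES 4 over ZES 3. In the BMS pigs the LAD was lower, by -0.79 and -1.52. The difference of these artery effects, ZES minus BMS, was 3.52 for CFD (limma adjusted p = 0.522) and 2.04 for C1QC (limma adjusted p = 0.582). In limma 0 probe sets passed in this test, and 1376 had an unadjusted p under 0.05.

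**Figure D5:**
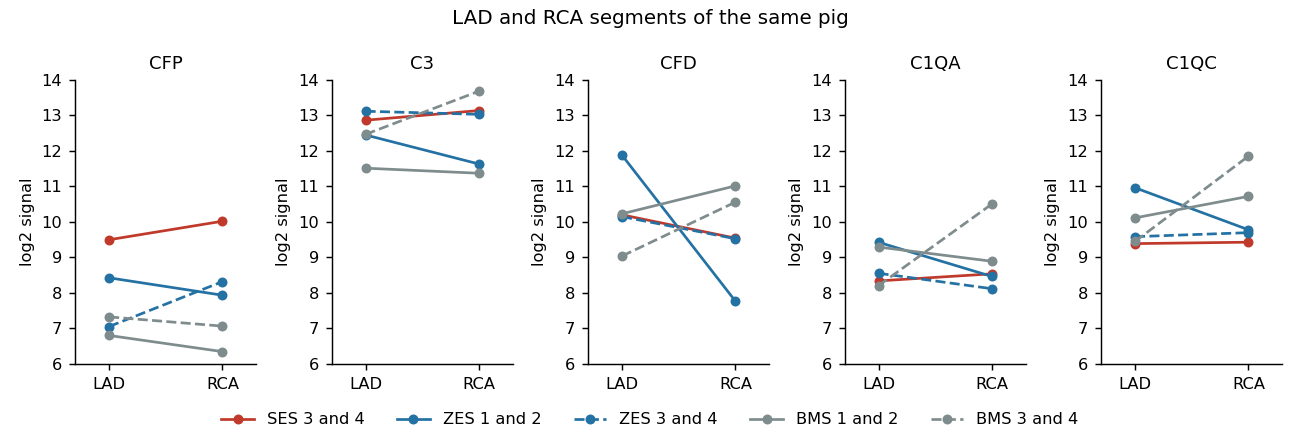
Log2 signal (y axis) of the 5 tested members in the LAD and the RCA segment of the same pig, with 1 line per pig, coloured by stent type. CFP of the SES pig lies above the other pigs in both arteries, and CFD of the ZES pig with segments 1 and 2 spans 11.87 in the LAD and 7.77 in the RCA.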

How the data were processed

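RNA of 12 stented coronary segments was measured on Affymetrix porcine arrays. The deposited values are log2 signals that the authors made with MAS5 in Affymetrix Expression Console 5.0 (per the submitters' processing notes). Log base and common scaling were read from the values (linear trimmed mean 500.15 to 500.17, with 2% off each end), and detection calls were not used here. Symbols came from the platform annotation. After removal of 124 control probe sets, a filter dropped the 30% whose mean signal across arrays was lowest, which left 16799. All 12 arrays entered a single limma fit (limma 3.58.1, R 4.3.3, statmod 1.5.0) in which the stent was a fixed and the pig a random effect (consensus correlation -0.0322), with a variance trend. Tests are two-sided, with Benjamini-Hochberg adjustment over all 16799 at 0.05. Each group holds 2 pigs, so p-values measure largely the spread among segments. For LAD minus RCA the pig was a fixed term. Control readings and marker means were compared by exact permutation over 70 arrangements.

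Members, gene lists and tests were chosen with earlier results of these data known. Named are all members, other complement genes that passed or had 1 of the 3 smallest p-values in a comparison, and the 3 genes most like each tested member by Pearson r. Of several probe sets of a gene, the brightest stands for it outside the members. The number of arrays limits the precision. Alternatives covered the block, pig means, normalization, a pseudocount (32), the filter, the trend, array weights, control covariates, the threshold, the artery (added after seeing the data; SES 1, the only LCX segment, then adds nothing to the stent estimates), and leaving out arrays or pigs.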

Additional observations from a re-analysis of the deposited data

Results flagged for a closer look

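In a group of 4 arrays, 1 value can stand apart by the ratio of its gap to the group's range. CFP on SES 4 passed the 95% critical value of this ratio, at 9.50, where the nearest other SES array was at 10.00 and the other 3 lay within 0.038 of each other. SES 4 also had a mean of 11.91 over the smooth muscle markers, against 8.87 to 9.32 on the other SES arrays, and of 7.75 over the cardiomyocyte markers, against 3.20 to 5.04. The part of these in its CFP value was not tested. C1QC on ZES 2 passed it too, at 10.96, against 9.78 on the nearest other ZES array. ZES 2 also had a 28S ribosomal RNA signal of 14.10, and the part of that in its C1QC value was not tested. Of 27 sets of 4 arrays checked, these 2 passed, and chance passes about 5%.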

How the results depend on the processing

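No paired analysis was possible because the labels give no replicate numbers and no pig shared between stent types, except for the arteries of a pig, which were compared in pairs. For the 5 tested members in 3 comparisons, 465 recalculations kept direction and side of the threshold in 429 cases, with 4 calls lost, 6 gained and 26 differences of opposite sign. CFP for SES minus BMS stayed between 2.56 and 3.31 in all 31 of its recalculations. The cause of the changes that follow was not tested. The count of members called was 1 for SES minus BMS, 0 for ZES minus SES and 1 for the F test, where 114, 12 and 58 of all 16799 probe sets were called. It became 2 for SES minus BMS without the filter, through CFB probe set 2 (183 of all 23999), and 0 with the GAPDH or the spike-in covariate (0 of all 16799 with either). It became 1 for ZES minus SES with the pseudocount (47 of all) or array weights (306 of all). For the F test it became 0 at an adjusted p under 0.01 (3 of all), with means per pig (47 of all), with the GAPDH (0 of all) or the spike-in covariate (2 of all), and with the artery as a term (0 of all). Leaving out 1 array gave 0 to 1 in each of these 3 counts, and leaving out 1 pig gave 0 to 2 for SES minus BMS and 0 to 1 for the other two. Over all probe sets, SES minus BMS then had 0 (without SES 3) to 415 calls (without SES 4), and 1 (without the pig of SES 1 and 2) to 405 calls (without that of BMS 3 and 4). ZES minus SES had 0 to 158 and 1 to 59 calls, and the F test 0 to 255 and 1 to 314.

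The opposite signs were all of differences that did not pass. With the GAPDH covariate they were -0.0039 for C3 in SES minus BMS, and in ZES minus SES 0.072 for C3 and 0.82 for C1QA. With the spike-in covariate CFD gave 0.27 for SES minus BMS and 0.31 for ZES minus BMS. With array weights C1QC gave -0.0020 for ZES minus SES, and with the artery as a term CFD gave -0.018 and C1QA 0.069. Without ZES 2 and BMS 1, ZES minus SES was -0.49 for CFD and -0.13 for C1QC. Without the pig of BMS 1 and 2, C3 gave -0.15 for SES minus BMS and -0.52 for ZES minus BMS, and CFD gave 0.030 for ZES minus BMS. Without that of SES 1 and 2, ZES minus SES was -0.042 for CFD and 0.20 for C1QA, and without that of SES 3 and 4 it was -0.23 for C1QC. Without that of ZES 1 and 2, ZES minus SES was -0.18 for C1QC and 0.15 for C3. Without that of ZES 3 and 4, C3 gave -0.22 for ZES minus BMS and C1QA 0.16 for ZES minus SES. Leaving out 1 array, ZES minus BMS ranged from -1.08 (without ZES 2) to 0.31 (without ZES 1) for CFD and from -0.030 (without BMS 1) to 0.78 (without BMS 3) for C3. ZES minus SES ranged from -0.52 (without ZES 2) to 0.88 (without ZES 1) for CFD, from -0.13 (without ZES 2) to 0.36 (without SES 1) for C1QC and from -0.40 (without ZES 2) to 0.042 (without SES 1) for C1QA. CFB, C5 and CFP probe set 2 are limited by signal near background.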

Other observations

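Near background, the CFB and C5 probe sets had 1 sign each between the arteries of a pig. Both CFB probe sets were lower in the LAD than in the RCA in 5 of 5 pigs, by -2.01 to -3.09 for probe set 1 and by -0.050 to -2.00 for probe set 2. C5 was higher in the LAD in 5 of 5 pigs, by 0.47 to 5.65. Of 23999 probe sets, 3.26% were lower and 4.53% higher in the LAD in all 5 pigs. The limma adjusted p without the filter was 0.754 and 0.889 for the CFB probe sets and 0.841 for C5. These signs were noticed after the values were seen.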
